A study of Mus musculus with 4 samples.

Results

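Type 1 conventional dendritic cells (cDC1) of the mouse liver were examined as single nuclei outside the cell cycle. A nucleus with at least 1000 UMIs (unique molecular identifiers, 1 for each RNA molecule counted) was taken as a cDC1 when the UMIs of Xcr1, Clec9a, Tlr3, Gcsam, Rab7b, P3h2 and Hepacam2 summed to 3 or more. Its sums also had to stay at or under 1 for Siglech and Grm8 (plasmacytoid dendritic cells, pDC), for Txk, Ncr1 and Cd3e (lymphocytes) and for Cd209a and Mgl2 (type 2 conventional dendritic cells, cDC2). At most 2 UMIs were allowed for Fscn1, Cacnb3 and Il4i1 (mature dendritic cells), and at most 2 for Top2a, Mki67, Knl1, Kif11 and Cenpe (mitosis). The rule found 4266 members among 40915 nuclei.

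Both groups were C57BL/6J mice, which were male and 6 to 12 weeks old. They were fed for 0 days (D0) or 5 days (D5) on chow holding 0.1% DDC, a dihydrocollidine that causes bile duct injury, so that D0 mice had no DDC. Living CD45+ CD64- CD11c+ liver cells were sorted, and RNA and open chromatin (ATAC) were read from the same nuclei by 10x Multiome. Each day was 1 library with no replicate, the number of animals in a library is not given in the sources used here, and diet and library cannot be told apart. For that reason no test was possible, and all intervals are 95% intervals that cover counting error only.

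cDC1 take up dying cells and present their antigens on MHC class I to CD8+ T cells, which is known as cross-presentation. They depend on the transcription factors IRF8, BATF3 and ID2 and on the growth factor receptor FLT3, and they carry the chemokine receptor XCR1, the receptor CLEC9A for exposed actin of dead cells and TLR3, which senses double-stranded RNA. In many tissues they are a source of IL-12 and of the T cell-attracting chemokines CXCL9 and CXCL10.

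Promoter sequences of 5 genes are shown first, because they stand for the gene groups described below: a cDC1 marker, 3 genes known to respond to interferon or to be raised on maturation, and a heat shock gene. They are the 250 bases before the start site in RefSeq (GRCm38.p6, printed 5′ to 3′ on the strand of the gene). The positions are chr6:129408612-129408861, + strand for Clec9a, chr15:77533316-77533565, - strand for Apol7c, chr3:142620413-142620662, + strand for Gbp2, chr11:53769764-53770013, + strand for Irf1 and chr17:34959239-34959488, - strand for Hspa1b. All 5 were searched on both strands for ISRE (interferon-stimulated response element, 2 copies of GAAA with 2 bases between them), GAS (TTCNNNGAA, the gamma interferon activated sequence), HSE (GAANNTTC, bound by heat shock factors), AP-1 (TGANTCA) and an ETS-IRF composite element (GGAA and GAAA with 2 bases between them), which can overlap ISRE. Capitals mark ISRE in Apol7c and Gbp2, GAS in Irf1 and HSE in Hspa1b.
Clec9a: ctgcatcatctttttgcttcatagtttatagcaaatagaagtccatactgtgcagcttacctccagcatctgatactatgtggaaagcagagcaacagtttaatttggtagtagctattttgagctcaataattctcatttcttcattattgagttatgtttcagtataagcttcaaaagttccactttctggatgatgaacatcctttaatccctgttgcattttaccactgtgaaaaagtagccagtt
Apol7c: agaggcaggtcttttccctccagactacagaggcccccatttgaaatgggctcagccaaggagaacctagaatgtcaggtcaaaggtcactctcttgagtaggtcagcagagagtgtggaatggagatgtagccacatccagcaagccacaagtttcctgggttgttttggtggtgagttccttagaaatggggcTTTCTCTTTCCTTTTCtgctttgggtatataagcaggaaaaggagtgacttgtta
Gbp2: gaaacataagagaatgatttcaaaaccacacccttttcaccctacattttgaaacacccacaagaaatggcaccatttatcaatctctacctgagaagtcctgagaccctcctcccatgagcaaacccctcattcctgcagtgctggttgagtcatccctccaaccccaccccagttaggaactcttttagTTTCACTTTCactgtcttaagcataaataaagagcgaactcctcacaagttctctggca
Irf1: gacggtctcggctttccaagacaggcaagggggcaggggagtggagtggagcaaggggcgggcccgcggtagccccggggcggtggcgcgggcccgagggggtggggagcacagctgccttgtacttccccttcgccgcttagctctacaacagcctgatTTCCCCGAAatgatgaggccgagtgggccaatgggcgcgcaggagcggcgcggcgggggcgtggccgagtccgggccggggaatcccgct
Hspa1b: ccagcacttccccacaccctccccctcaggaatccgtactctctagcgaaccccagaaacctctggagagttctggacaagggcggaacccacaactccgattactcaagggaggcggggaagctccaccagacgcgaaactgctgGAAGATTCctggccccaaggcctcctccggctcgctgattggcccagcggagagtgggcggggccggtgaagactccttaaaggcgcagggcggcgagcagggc
Apol7c held 2 overlapping ISRE matches. Gbp2 held an ISRE match whose first base lies at position -59 from the start and an AP-1 match, left in lower case, at -102, Irf1 a GAS match at -90, and Hspa1b an HSE match at -104. In the window of Clec9a these letters were not found. The same search gave no match in Hsph1, a heat shock gene that was lower at D5, or in Cxcl9, also lower, and none in Ifitm1. For HSE only the letters GAANNTTC were searched, and its units in the inverted order were not. The absence of a match therefore does not mean that Hsph1 lacks a heat shock element. The HSE counts below share this limit. Ifitm2, which was higher at D5, held an ISRE match at -46. The window searched for the heat shock gene Dnajb1, also lower, held no match. It contains the ATG and first codons of the protein, so nothing is said of sequence further upstream. Of all 32536 promoters of this length, 2.98% held the ISRE letters, 7.04% GAS, 6.72% HSE, 6.73% AP-1 and 2.31% the composite element. Among the interferon-stimulated genes described below, 11 of the 25 with a promoter in the table held ISRE, and among the heat shock genes 5 of 18 held HSE. These are matches of letters and were not taken as binding sites.

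The members were 1576 of 14282 nuclei at D0, or 11.03% (exact binomial interval 10.5 to 11.6), and 2690 of 26633, or 10.1% (9.74 to 10.5), at D5. The difference of D5 minus D0 was -0.93 percentage points (-1.57 to -0.31). It widened to -4.09 when every nucleus was thinned to 1000 UMIs before the rule was applied, with 7.27% at D0 and 3.18% at D5. Before the exclusions, 3886 nuclei (27.2%) at D0 and 4820 (18.1%) at D5 had reached the marker sum. Of these the lymphocyte genes removed 1173 and 369, the pDC genes 1394 and 771 and the cDC2 genes 704 and 1115, with some nuclei removed by more than 1 set. The size of the difference in share therefore depends on the exclusions and on depth. The depth of a member was 2274 UMIs (median) at D0 and 3317 at D5. Its median marker sum was 6 and 5, the highest 33 and 23, and a member held a median of 3 of the 7 markers on both days. The sort was on CD11c protein, so these shares are of nuclei that passed the gate, not of liver cells.

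Across the threshold the level of other cDC1 genes differed by degrees. Nuclei with a marker sum of 2, just outside, held Cadm1 at 476 and 333 CPM at D0 and D5, those with a sum of 3, just inside, at 787 and 607 CPM, and those with 4 or more at 1182 and 820.4 CPM. CPM are the UMIs of a gene per 1000000 UMIs, summed over the nuclei. Cadm1, an adhesion molecule of cDC1, was not in the rule. There were 393 and 769 nuclei just outside and 262 and 511 just inside.

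Genes that the rule did not use are given as a description, because their list was chosen with earlier results of these data known. Its genes Gpr33, Itga8, Snx22, Gpr141b, Sept3, Plpp1 and Tlr11 also lead the ranking of these same members below. The other classes were chosen with a low marker sum. Not higher in members than in every other class were Cd8a and, at D0, Zbtb46. Zbtb46 was then at 178 CPM in members and 181 CPM in cDC2 nuclei. Of 22 further cDC1 genes, 21 were named in the files and all 21 reached 50 UMIs. Summed over the list, members held 7481 to 6004 CPM (a pair joined by "to" gives D0 first and D5 second, here and below), against 1775 to 1398 CPM in cDC2 nuclei, 1376 to 1265 CPM in pDC nuclei and 1029 to 880.1 CPM in NK or T nuclei, which were chosen from the genes of the same rule. Wdfy4, required for cross-presentation, was at 2162 to 1698 CPM in members and 661 to 425 CPM in cDC2 nuclei. Irf8 was at 1305 to 1188 CPM in members and, as is known for pDC, also high there, at 1739 to 1375 CPM. Cd8a, a marker of cDC1 in lymphoid organs, was at 17.3 to 10.8 CPM in members, under its level in nuclei with no marker UMI (27.5 to 15.4 CPM), pDC nuclei (28.6 to 29.1 CPM) and NK or T nuclei (49.3 to 63.1 CPM). Itgae (CD103) was at 169.6 to 105 CPM in members and 9.92 to 10.9 CPM in cDC2 nuclei.

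**Figure D1:**
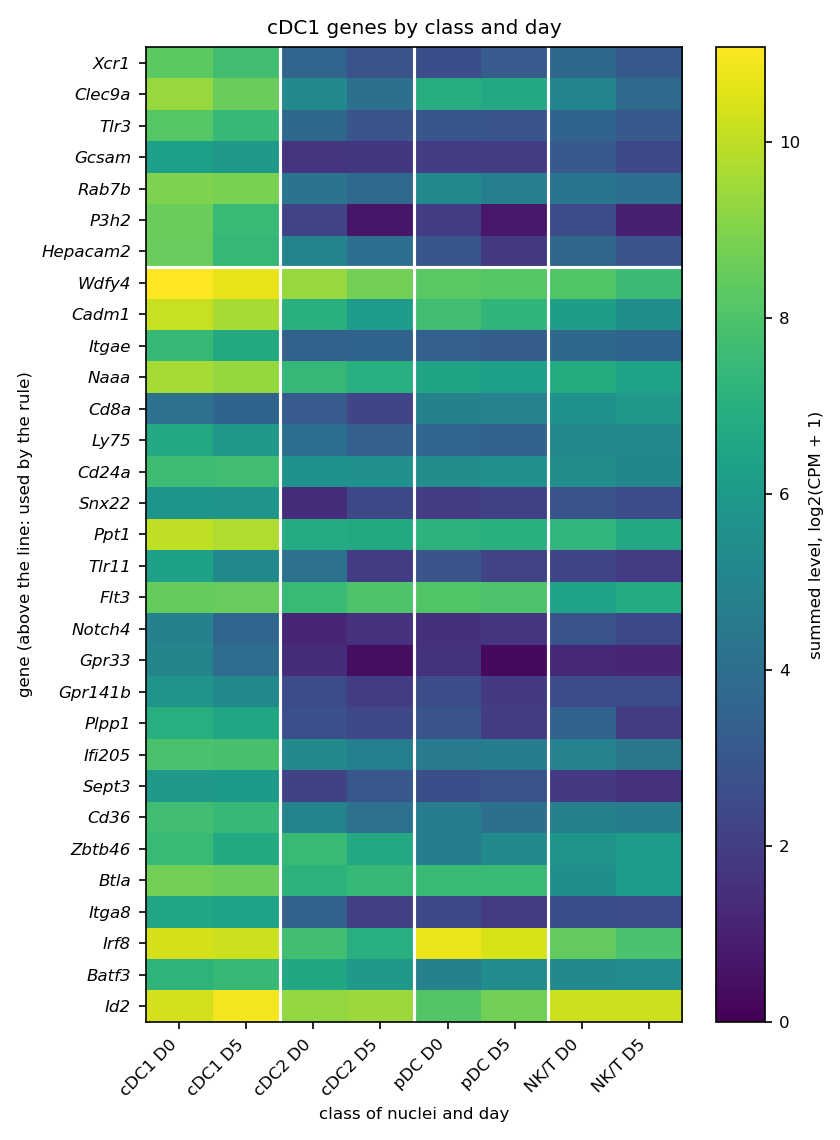
Colour gives the summed level, as log2(CPM + 1), of each gene (rows) in 4 classes of nuclei at D0 and D5 (columns). Above the white line are the 7 genes the rule used, below it genes it did not use. The first pair of columns, cDC1 nuclei, is brightest for Wdfy4 and Cadm1, while Irf8 is as bright in pDC nuclei.

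Genes outside the rule, some of them in the list above, set members apart from nuclei with no UMI of any marker. Ranked by the lower of both days' ratios, the leading gene was Plce1 (a phospholipase C), at 95.04 and 36.5 CPM in members and 2.44 and 0.773 CPM in the others, which is 39.0-fold at D0 and 47.3-fold at D5. Esyt3, a tether between membranes, followed at 32.8-fold and 25.9-fold. The next were Gpr33, Itga8, Snx22, Gpr141b, Sept3, Ccser1, Plpp1, Gm2629, Tlr11 and Gm43914. The ratios are a description, since the same RNA chose the members.

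The levels of the markers are a description, because the rule chose the members by them. It asked for the same 3 UMIs at both depths, and a deeper nucleus reaches 3 UMIs at a lower CPM, so the values at D5 and D0 were not selected alike. Clec9a was at 667 CPM (2736 UMIs) at D0 and 374 CPM (3800 UMIs) at D5, a log2 ratio of D5 over D0 of -0.83 (-0.91 to -0.76). Xcr1 was at 309 CPM (1269 UMIs) at D0 and 211 CPM (2141 UMIs) at D5, a log2 ratio of -0.55 (-0.65 to -0.45), and Tlr3 at 284 to 171 CPM, a log2 ratio of -0.74 (-0.84 to -0.63). P3h2 and Hepacam2 were lower by more than 2-fold, at 372 to 176 CPM and 361 to 165 CPM, while Rab7b, at 493 to 466 CPM, was nearly level. The median log2 ratio over the 7 markers was -0.74. In nuclei thinned to 1000 UMIs after they were chosen, a Clec9a UMI was found in 50.8% and 31.2% of members at D0 and D5 and in 3.00% and 1.002% of NK or T nuclei, which should lack the gene. Without thinning it was found in 79.3% and 71.6% of members. The summed marker level in cDC2 nuclei, which were not chosen by a minimum of these genes, was 115 to 59.8 CPM.

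The question of what differed between D5 and D0 was then asked of all genes. Of 10502 genes with 50 or more UMIs over both days in members, 72 (0.686%) were 2-fold or more higher at D5 and 685 (6.52%) were 2-fold or more lower. The median log2 ratio of all genes was -0.21, and 68.6% of the genes had a ratio under 0. With TMM factors, which centre the bulk of the genes, every RNA ratio was higher by 0.33, the all-gene median was above 0, and 358 genes were 2-fold higher and 330 lower. List medians are therefore read against -0.21, and a ratio between -0.33 and 0 turns its sign under TMM. In bulk sums such as these, fewer cells expressing a gene and less RNA per cell cannot be told apart.

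**Figure D2:**
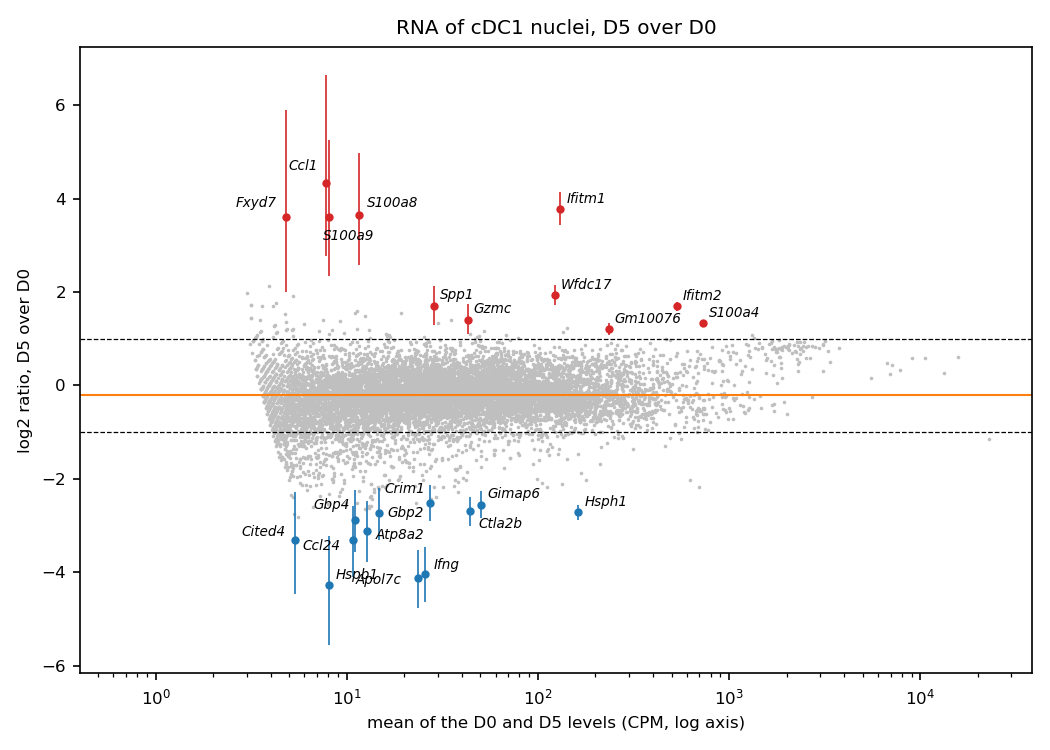
Each point is a gene with 50 or more UMIs in cDC1 nuclei, placed by its mean level in CPM (log axis) and its log2 ratio of D5 over D0. Bars on named genes are 95% counting intervals, dashed lines mark 2-fold and the orange line marks the median of -0.21. Named in red are genes higher and in blue genes lower at D5, and Ifitm1 stands apart among the well counted genes.

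Ranked by the lower bound of the interval, the genes higher at D5 were led by Ifitm1, an interferon-induced transmembrane protein. It was at 17.8 CPM (73 UMIs) at D0 and 244 CPM (2480 UMIs) at D5, a log2 ratio of 3.78 (3.44 to 4.13). The other classes held like ratios, 3.92 in cDC2, 4.51 in pDC and 3.77 in NK or T nuclei. In thinned nuclei it was found in 1.40% and 16.3% of members and in 3.86% and 38.4% of cDC2 nuclei. Its relative Ifitm2 was at 251 CPM (1029 UMIs) at D0 and 811 CPM (8235 UMIs) at D5, a log2 ratio of 1.69 (1.60 to 1.79), and Ifitm3 at 314 CPM (1288 UMIs) at D0 and 625 CPM (6347 UMIs) at D5, a log2 ratio of 0.99 (0.91 to 1.08). All 5 Ifitm genes with 50 UMIs, of 7 listed, were higher at D5 (31.4% of all genes were), 2 of them past 2-fold, or 4 with TMM factors, with a median of 0.99.

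Wfdc17, a small secreted protein of myeloid cells, was at 50.7 to 194 CPM and S100a4, a calcium-binding protein, at 414 to 1043 CPM. In thinned nuclei Wfdc17 was found in 4.38% and 16.8% of members. Its shares were 24.1% and 36.8% in cDC2, 5.43% and 24.2% in pDC and 6.38% and 22.5% in NK or T nuclei. S100a4 was found in 29.2% and 60.7% of members. Its shares were 65.0% and 90.6% in cDC2, 31.9% and 73.7% in pDC and 58.4% and 80.0% in NK or T nuclei. The higher levels of both were thus not particular to members. Several of the others are known from other cells. S100a8 and S100a9, the calprotectin of neutrophils, were at 1.71 to 21.4 CPM and 1.22 to 14.9 CPM, while the neutrophil genes Ly6g and Ngp were at 0 UMIs on both days, and a count of 0 allows up to 3. Spp1 (osteopontin), known from bile duct cells and macrophages, was at 13.4 to 43.8 CPM, Epcam at 5.61 to 16.5 CPM, and Krt19 at 0 UMIs on both days. In thinned nuclei Spp1 was found in 1.08% and 4.28% of members at D0 and D5. The shares were 0.580% and 1.24% in cDC2, 0.242% and 0.488% in pDC and 0.461% and 0.668% in NK or T nuclei. The granzyme Gzmc was at 23.4 to 62.2 CPM, and Ahsg, a plasma protein of hepatocytes, at 0 UMIs at D0 and 62 UMIs at D5. All of these Ahsg UMIs lay in 2 of 2690 members (0.0743%), and an interval for counting error does not cover such clustering. Summed over their lists, neutrophil markers held 15.1 to 41.8 CPM in members (3 of 10 with 50 UMIs), cholangiocyte markers 26.6 to 64.7 CPM (3 of 10), hepatocyte markers 154 to 128 CPM (3 of 14), macrophage markers 128 to 119.9 CPM (7 of 14) and monocyte markers 1657 to 1922 CPM (8 of 12). Endothelial and stellate markers held 92.1 to 42.3 CPM (3 of 12) and B and plasma cell markers 133 to 102 CPM (3 of 12). The part of RNA from these cells in the values above was not tested. Ccl1, Fxyd7 and the gene Gm10076 completed the list, at 0.731 to 14.9 CPM, 0.731 to 8.86 CPM and 142 to 326 CPM.

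At the other end, Apol7c, a lipid-binding protein of dendritic cells known to damage phagosome membranes, was at 44.6 CPM (183 UMIs) at D0 and 2.56 CPM (26 UMIs) at D5, a log2 ratio of -4.12 (-4.78 to -3.53). In thinned nuclei Apol7c was found in 1.97% and 0.149% of members and in 0.692% and 0.334% of NK or T nuclei, and the D5 share in members was under that background. Hsph1 was at 281 CPM (1155 UMIs) at D0 and 42.7 CPM (434 UMIs) at D5, Gbp2 at 25.6 CPM (105 UMIs) at D0 and 3.84 CPM (39 UMIs) at D5 and Gbp4 at 19.5 CPM (80 UMIs) at D0 and 2.66 CPM (27 UMIs) at D5. In thinned nuclei Gbp4 was found in 1.40% and 0.112% of members and 10.9% and 8.35% of NK or T nuclei. Gbp2 was found in 1.90% and 0.260% of members and 3.15% and 1.42% of NK or T nuclei. Ifng, a cytokine of NK and T cells, was at 48.3 to 2.95 CPM, Ctla2b (an inhibitor of proteases) at 76.3 to 11.8 CPM, Gimap6 at 86.0 to 14.7 CPM, Hspb1 at 15.4 to 0.788 CPM and Ccl24 at 19.5 to 1.97 CPM. The others were Atp8a2 at 22.9 to 2.66 CPM, Cited4 at 9.75 to 0.984 CPM and Crim1 at 46.3 to 8.07 CPM.

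Lymphocyte RNA in members differed between the days and stands beside each of these values. Of 20 NK, ILC and T cell markers with 50 UMIs, out of 26 listed, 16 were 2-fold or more lower at D5, against 6.52% of all genes, with a median log2 ratio of -1.46. The list holds Txk, Ncr1 and Cd3e, whose sum the rule capped at 1 UMI per nucleus, and a fixed cap allows a lower CPM in deeper nuclei. Without them 14 of 18 were lower by 2-fold or more, or 10 with TMM factors, with a median of -1.41. The sum of all listed markers was 2158 to 1207 CPM in members and 18220.4 to 16664 CPM in NK or T nuclei. Among members with no UMI of 13 lymphocyte genes, 323 at D0 and 971 at D5, single genes had no minimum of UMIs. Their ratios carry no intervals, may rest on few counts and decide nothing about lymphocyte RNA. The log2 ratio there was -2.88 for Ifng, -3.39 for Apol7c, -2.94 for Gbp2, -2.97 for Gbp4 and -2.68 for Hsph1. That of Ccl24 was -0.91 and that of S100a9, among the higher genes, 0.35. The pDC markers had a median of -1.13 (7 of 13 lower by 2-fold, or 6 of 11 without the capped Siglech and Grm8) and the cDC2 markers one of 0.29, with 0 of 15 past 2-fold, and their part in the results was not tested. Members were not cleared of doublets. A Scrublet score of 0.2 or higher was held by 11.9% of members at D0 and 18.6% at D5, and of 591 cell barcodes found in both libraries 6 were members in both.

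**Figure D3:**
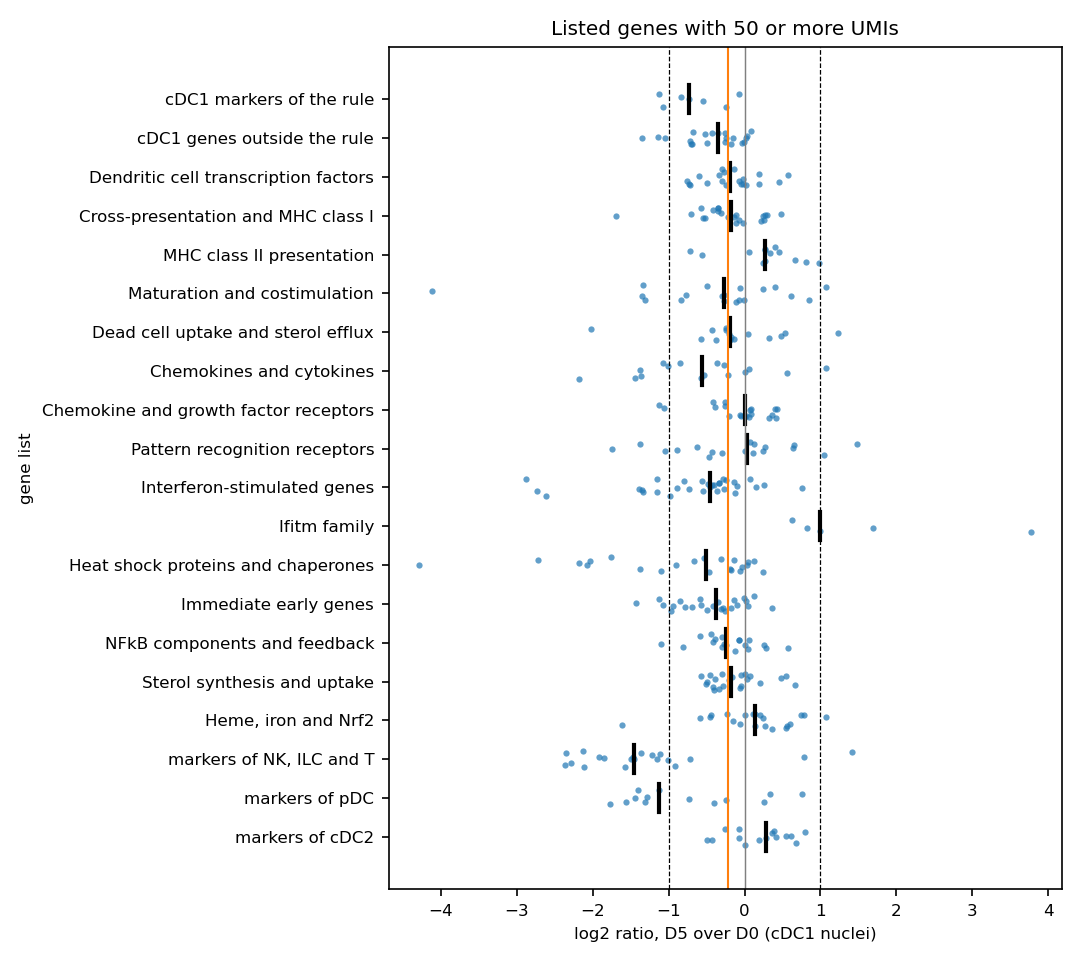
Each row is a gene list, each point a gene with 50 or more UMIs in cDC1 nuclei, placed by its log2 ratio of D5 over D0, and the black bar is the median. The orange line is the median of all genes at -0.21 and dashed lines mark 2-fold. The Ifitm family and MHC class II presentation lie to the right, and interferon-stimulated genes, heat shock genes and the lymphocyte markers to the left.

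Genes of cDC1 outside the rule had a median log2 ratio of -0.35, and 18 of 21 were lower (68.6% of all genes), or 11 with TMM factors (38.9% of all genes). The rule asked for 3 marker UMIs at both depths, so members at D5 could enter at a lower marker CPM. As Cadm1 was higher in nuclei with a higher marker sum, cDC1 genes outside the rule were not selected alike on both days either. The part of this in their ratios was not tested. Lower by 2-fold or more were 3 (6.52% of all genes), or 1 with TMM factors, namely Tlr11 (80.9 to 39.0 CPM), a receptor for microbial profilin, Notch4 (28.3 to 11.1 CPM) and Gpr33 (32.2 to 14.6 CPM). Cadm1 was at 1126 CPM (4620 UMIs) at D0 and 786 CPM (7983 UMIs) at D5, a log2 ratio of -0.52 (-0.57 to -0.47), and the endocytic receptor Ly75 (DEC-205) at 101 to 62.2 CPM. By contrast Flt3, at 354 to 359 CPM, Cd24a, at 199 to 204 CPM, and Snx22, at 55.6 to 54.1 CPM, held nearly the same level on both days. The log2 ratio of Tlr12, which acts with Tlr11, was -1.74 (-2.13 to -1.36), with 134 and 99 UMIs.

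None of 20 transcription factors of dendritic cells differed by 2-fold, where 0.686% of all genes were higher and 6.52% lower by as much. Their median of -0.19 was near that of all genes. Irf8, which cDC1 need throughout life, was at 1305 CPM (5356 UMIs) at D0 and 1188 CPM (12070 UMIs) at D5, a log2 ratio of -0.14 (-0.18 to -0.09). Batf3, its partner, was at 147 CPM (604 UMIs) at D0 and 168 CPM (1709 UMIs) at D5, a log2 ratio of 0.19 (0.06 to 0.33), while cDC2 nuclei held 96.2 to 60.1 CPM. In pDC nuclei Batf3 was at 27.6 to 40.0 CPM and in NK or T nuclei at 39.0 to 39.3 CPM. Id2, which blocks the pDC fate, was at 1264 CPM (5185 UMIs) at D0 and 1886 CPM (19156 UMIs) at D5, a log2 ratio of 0.58 (0.53 to 0.62), the highest of the list. Its level was 626 to 682 CPM in cDC2, 277 to 419 CPM in pDC and 1201 to 1217 CPM in NK or T nuclei. Spi1 (PU.1) was at 336 to 459.8 CPM in members, 404 to 523 CPM in cDC2, 119 to 240 CPM in pDC and 140 to 253 CPM in NK or T nuclei. Higher levels of Id2 and Spi1 at D5 were thus not particular to members. Zbtb46, a factor of conventional dendritic cells, was at 178 to 108 CPM, and Notch2 at 393 to 233 CPM.

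In antigen presentation the classes parted. Of 13 genes of MHC class II presentation, 11 were higher at D5, against 31.4% of all genes, and the median log2 ratio was 0.27. With TMM factors 11 were higher too, against 6416 of all 10502 genes. The medians of the same genes in the other classes were 0.08 in cDC2, 0.77 in pDC and 0.62 in NK or T nuclei. Summed over the list, members held 34333 to 42722 CPM and NK or T nuclei, which should hold little of it, 15451 to 23339.9 CPM, so that the higher level at D5 was not particular to cDC1 nuclei and the part of free RNA in it was not tested. H2-Aa, an alpha chain, was at 5995 CPM (24600 UMIs) at D0 and 8172 CPM (83013 UMIs) at D5, a log2 ratio of 0.45 (0.43 to 0.47), and Cd74, the invariant chain, at 11999 CPM (49237 UMIs) at D0 and 14496 CPM (147258 UMIs) at D5, a log2 ratio of 0.27 (0.26 to 0.29). The endosomal reductase Ifi30 (GILT) was at 329 to 649 CPM, the protease Lgmn at 73.1 to 128 CPM and cathepsin S (Ctss) at 546 to 866 CPM. The exceptions were Ciita, the transactivator of class II genes, at 393 to 267 CPM, and H2-Ob, an inhibitor of peptide loading, at 369 to 224 CPM. None of the 13 was past 2-fold, where 0.686% of all genes were higher and 6.52% lower by as much. With TMM factors 2 were higher, against 358 of all 10502 genes.

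The 22 genes of cross-presentation and MHC class I had a median of -0.18, close to all genes. H2-Q7, a nonclassical class I gene, was the one past 2-fold (6.52% of all genes were lower by as much), at 322 CPM (1322 UMIs) at D0 and 99.9 CPM (1015 UMIs) at D5, a log2 ratio of -1.69 (-1.81 to -1.57), and it has close relatives that could share reads. In thinned nuclei it was found in 25.3% and 9.52% of members and 75.7% and 59.3% of NK or T nuclei. The part of lymphocyte RNA in it was not tested. H2-K1 was at 1220.2 to 745 CPM, H2-D1 at 1428 to 962 CPM, the peptide transporter Tap1 at 196 to 136 CPM and Nlrc5, transactivator of class I genes, at 95.8 to 65.3 CPM, all lower at D5. Endoplasmic reticulum chaperones of the list were higher, with Calr at 394 to 548 CPM and Pdia3 at 320.5 to 388 CPM. Wdfy4 was at 2162 CPM (8873 UMIs) at D0 and 1698 CPM (17246 UMIs) at D5, a log2 ratio of -0.35 (-0.39 to -0.31).

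Most genes of the interferon-stimulated list were lower at D5. This list leaves out the Ifitm genes, which are also induced by interferon. They were counted in a list of their own, in which all 5 with 50 UMIs were higher and 2 were past 2-fold. Of 36 listed, 31 had 50 UMIs, of which 27 were lower at D5 (68.6% of all genes were) and 8 were lower by 2-fold or more (6.52% of all genes), with none 2-fold higher. With TMM factors 21 of the 31 were lower, against 38.9% of all genes, and 6 were lower by 2-fold or more. The median log2 ratio was -0.45, or -0.12 with TMM factors. The 8 were Gbp2, Gbp4, Gbp7, Iigp1, Ifi47, Irf1, Ifit2 and Oasl1, of which the first 5 are GTPases known from the response to interferon gamma and Irf1 is one of its transcription factors. Irf1 was at 149 CPM (610 UMIs) at D0 and 56.9 CPM (578 UMIs) at D5, a log2 ratio of -1.39 (-1.55 to -1.22), and Iigp1 at 22.4 CPM (92 UMIs) at D0 and 3.64 CPM (37 UMIs) at D5, a log2 ratio of -2.62 (-3.21 to -2.06). Of genes known from the type I interferon response, Rsad2 was at 18.5 to 9.35 CPM, Isg15 at 42.4 to 30.4 CPM, Irf7 at 66.5 to 45.6 CPM and Oas2 at 5.36 to 5.61 CPM. Ifi27l2a, at 102 to 174 CPM, was the highest of the list.

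The log2 ratio of Gbp2 was -3.19 in cDC2, -2.33 in pDC and -1.11 in NK or T nuclei, beside -2.74 in members. That of Irf1 was -1.16 in cDC2, -0.59 in pDC and -0.81 in NK or T nuclei, beside -1.39 in members. Lower levels of both genes were thus found in all 4 classes. In thinned nuclei Irf1 was found in 11.9% and 5.43% of members and 21.4% and 14.5% of NK or T nuclei. The other classes come from the same pair of libraries and are not separate evidence. The Gbp and Iigp1 sequences have close relatives, so reads could be split among them.

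**Figure D4:**
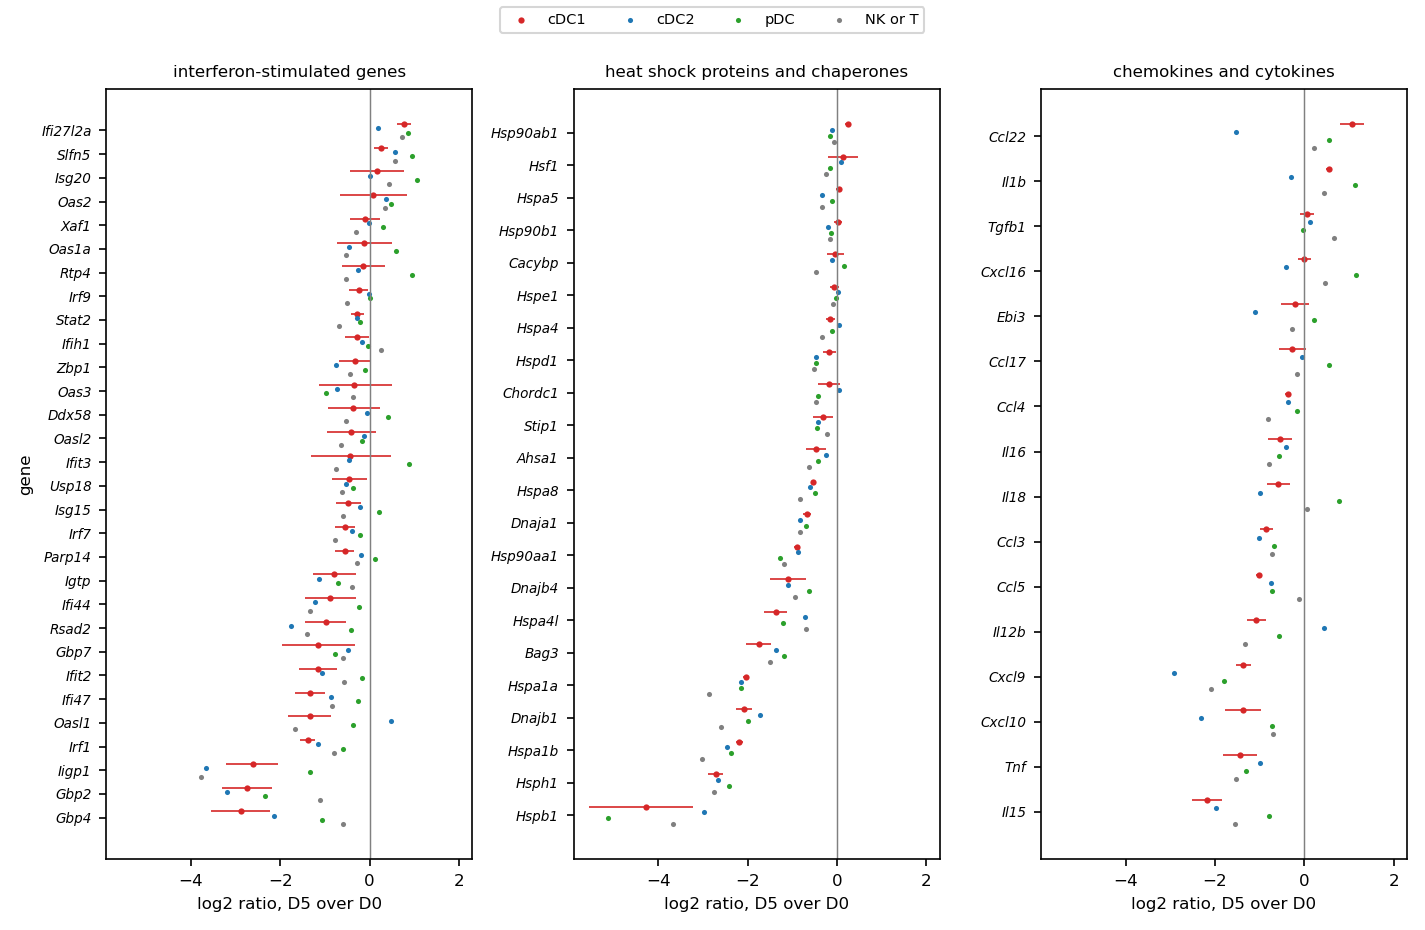
Points give the log2 ratio of D5 over D0 for genes with 50 or more UMIs in cDC1 nuclei, in cDC1 (red, with 95% counting intervals), cDC2 (blue), pDC (green) and NK or T nuclei (grey); a gene with fewer than 20 UMIs in another class has no point there. Gbp2, Irf1 and the heat shock genes Hsph1, Hspa1b and Dnajb1 lie left of 0 in every class, while Ccl22 lies right of 0 in cDC1 and left in cDC2 nuclei.

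Heat shock genes were counted next. Of 22, 18 were lower at D5 (68.6% of all genes), or 12 with TMM factors (38.9% of all genes), and 8 were lower by 2-fold or more (6.52% of all genes), or 7 with TMM factors. The median log2 ratio was -0.50. Those 8 were Hspb1, Hsph1, Hspa1a, Hspa1b, Dnajb1, Bag3, Hspa4l and Dnajb4, which are the inducible members and co-chaperones. Hspa1b was at 1139 CPM (4672 UMIs) at D0 and 251 CPM (2546 UMIs) at D5, a log2 ratio of -2.18 (-2.25 to -2.11), and Dnajb1 at 171 to 40.4 CPM. Hspa1a and Hspa1b are near-identical copies and their split is uncertain. Chaperones of the endoplasmic reticulum and the mitochondria were nearly level, with Hspa5 at 797 to 824 CPM, Hsp90b1 at 396 to 403 CPM and Hspd1 at 141 to 124 CPM. The log2 ratio of Hsph1 was -2.67 in cDC2, -2.41 in pDC and -2.76 in NK or T nuclei, beside -2.72 in members.

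Immediate early genes, which respond within minutes of a stimulus, had a median of -0.38, and 20 of 24 were lower (68.6% of all genes), or 13 with TMM factors (38.9% of all genes). Jun (671 to 307 CPM), Egr2 (26.6 to 12.6 CPM) and Rhob (58.5 to 21.8 CPM) were the 3 lower by 2-fold or more (6.52% of all genes), or 1 with TMM factors, while Fos was at 959.7 to 849 CPM and Junb at 1052 to 1064 CPM. Of 19 NFkB components and feedback genes, only the deubiquitinase Tnfaip3 was past 2-fold, lower at 151 to 70.5 CPM (6.52% of all genes were), and none with TMM factors. The inhibitor Nfkbia was at 502 to 609 CPM.

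Chemokines and cytokines had a median of -0.56, with 6 of 16 lower by 2-fold or more (6.52% of all genes), or 4 with TMM factors, and 1 higher (0.686% of all genes). Cxcl9, which attracts CXCR3+ T cells, was at 138 CPM (565 UMIs) at D0 and 53.4 CPM (542 UMIs) at D5, a log2 ratio of -1.37 (-1.54 to -1.20), and Cxcl10, a ligand of the same receptor, at 26.6 CPM (109 UMIs) at D0 and 10.2 CPM (104 UMIs) at D5, a log2 ratio of -1.38 (-1.78 to -0.97). In thinned nuclei Cxcl9 was found in 6.73% and 2.97% of members and 3.46% and 1.25% of NK or T nuclei. Cxcl10 was rarer in members, at 1.52% and 0.520%, than in NK or T nuclei, at 2.77% and 2.00%. In cDC2 nuclei Cxcl10 was found in 4.73% and 1.42%. Il15, a survival cytokine of NK and memory CD8+ T cells, was at 52.4 CPM (215 UMIs) at D0 and 11.5 CPM (117 UMIs) at D5, a log2 ratio of -2.19 (-2.52 to -1.85). Il12b, the p40 subunit of IL-12, was at 90.7 CPM (372 UMIs) at D0 and 43.1 CPM (438 UMIs) at D5, a log2 ratio of -1.07 (-1.27 to -0.87), and it was found in 4.25% and 2.01% of thinned members against 0.538% and 0.167% of NK or T nuclei. In members with no lymphocyte UMI the log2 ratio of Il12b was -0.49, within 2-fold, without a minimum of UMIs or an interval. Tnf was at 30.0 to 11.03 CPM and Ccl5, which lymphocytes also make, at 727 to 361 CPM. Ccl22, a ligand of CCR4 made by maturing dendritic cells, was the gene past 2-fold higher, at 31.9 CPM (131 UMIs) at D0 and 66.8 CPM (679 UMIs) at D5, a log2 ratio of 1.07 (0.79 to 1.35), and it was at 222 to 76.7 CPM in cDC2 nuclei. In thinned nuclei Ccl22 was found in 2.41% and 4.54% of members and 2.08% and 3.17% of NK or T nuclei. Il1b was at 595 CPM (2441 UMIs) at D0 and 875 CPM (8884 UMIs) at D5 in members and 3172 to 2562 CPM in cDC2 nuclei. In thinned nuclei a UMI of Il1b was found in 32.0% and 44.6% of members. It was also found in 20.2% and 36.4% of pDC and 25.0% and 35.7% of NK or T nuclei, classes not known as sources of it. The difference between the days was smaller in members than in pDC nuclei. The part of free RNA in these shares was not tested.

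Among receptors, the median over 20 was 0.00. Ccr9, a gut-homing receptor that pDC also carry, was at 81.2 to 37.1 CPM and Cxcr3 at 47.5 to 22.7 CPM, both lower by 2-fold or more (6.52% of all genes), and neither with TMM factors. Ccr2 was at 416 to 434 CPM, the GM-CSF receptor chain Csf2rb at 189.6 to 255 CPM and Ccr7, which guides dendritic cells to lymph nodes, at 57.0 to 75.4 CPM.

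Maturation and costimulation genes split. Of 19, 4 were lower by 2-fold or more, namely Apol7c, Cd274, Pdcd1lg2 and Socs1 (6.52% of all genes), and Ccl22 was higher (0.686% of all genes). With TMM factors 3 were lower and 2 higher. Cd274 (PD-L1) was at 62.6 CPM (257 UMIs) at D0 and 25.2 CPM (256 UMIs) at D5, a log2 ratio of -1.31 (-1.57 to -1.06), and Pdcd1lg2 (PD-L2) at 21.4 to 8.47 CPM. Socs1, an inhibitor of cytokine signalling, was at 17.8 CPM (73 UMIs) at D0 and 6.99 CPM (71 UMIs) at D5, a log2 ratio of -1.35 (-1.84 to -0.86). The costimulatory genes Cd80 and Cd86 were at 172 to 159 CPM and 669 to 644 CPM, and Cd40 at 23.4 to 19.0 CPM. Mature nuclei with more than 2 UMIs of Fscn1, Cacnb3 and Il4i1 had been left out by the rule.

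Of 15 genes of dead cell uptake and sterol efflux, 1 was 2-fold or more higher (0.686% of all genes) and 1 lower (6.52% of all genes), with TMM factors too. The higher gene was Apoe, a lipid carrier, at 85.1 CPM (349 UMIs) at D0 and 199 CPM (2024 UMIs) at D5, a log2 ratio of 1.23 (1.06 to 1.40). The lower gene was Timd4, a phosphatidylserine receptor that also marks liver macrophages, at 29.7 to 7.28 CPM. Axl, another such receptor, was at 15.4 to 21.5 CPM and Havcr2 (TIM-3) at 458 to 386 CPM. In thinned nuclei a UMI of Apoe was found in 5.77% and 6.28% of members at D0 and D5. The shares were 5.80% and 6.67% in cDC2, 6.30% and 8.79% in pDC and 5.61% and 9.10% in NK or T nuclei. The share of members with Apoe was thus nearly level, while its summed level was higher. Of 21 genes of heme, iron and oxidative stress, 14 were higher (31.4% of all genes), or 17 with TMM factors (6416 of all 10502 genes). The ferritin heavy chain Fth1 was at 852 CPM (3496 UMIs) at D0 and 1792 CPM (18208 UMIs) at D5, a log2 ratio of 1.07 (1.02 to 1.13), and Ftl1 at 509 to 854 CPM. In thinned nuclei Fth1 was found in 50.8% and 76.9% of members. Its shares were 79.6% and 92.9% in cDC2, 60.2% and 82.3% in pDC and 59.7% and 82.8% in NK or T nuclei. Both ferritin genes have processed copies in the genome that could share reads. Heme oxygenase Hmox1 was at 9.99 to 14.7 CPM, with 41 and 149 UMIs. None of 22 sterol synthesis genes was past 2-fold (median -0.18), where 0.686% of all genes were higher and 6.52% lower by as much. With TMM factors 1 was higher. Of 18 pattern recognition receptors, Tlr13, a sensor of bacterial RNA, and the lectin Clec4n were 2-fold or more higher (0.686% of all genes), at 10.97 to 22.6 CPM and 6.58 to 18.4 CPM. Tlr11, Tlr12 and Nod1 were lower by 2-fold or more (6.52% of all genes). With TMM factors 2 were higher and 2 lower.

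Members varied among themselves. Over 3250 genes with a mean of 0.05 or more thinned UMIs, the median of the lower of both days' Fano factors (variance over mean, 1 for counting alone) was 1.04. The highest were Malat1, Tmsb4x, Cxcl9, Cst3, Apoe, Lyz2, Tcf4, Gm42418, Actb and Rgs1. Cxcl9 had Fano factors of 2.71 at D0 and 5.10 at D5, and a UMI of it was found in 6.73% and 2.97% of thinned members. Apoe had Fano factors of 2.47 and 9.24. Tcf4, a factor of pDC, had 2.38 and 2.44. The part of doublets in this spread was not tested. Of 22 cell cycle genes outside the rule with 50 UMIs, 18 were lower at D5 (68.6% of all genes), or 10 with TMM factors (38.9% of all genes), 2 were lower by 2-fold or more (6.52% of all genes), or 0 with TMM factors, and none was 2-fold higher. The rule capped the sum of its mitosis genes at 2 UMIs per nucleus, and a fixed cap allows a lower CPM in deeper nuclei. The part of this cap in the cell cycle values was not tested. Pcna was at 177 to 131 CPM.

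Chromatin was read in the same nuclei, with 8682713 fragments of members at D0 and 11353746 at D5 in 127216 regions that overlapped between the days. Fragments are counted cut sites divided by 2. Of 70040 regions with 50 or more fragments, 401 (0.573%) were 2-fold or more higher at D5 and 1113 (1.59%) lower, and the median log2 ratio was -0.02. Members with no lymphocyte UMI gave 102 lower regions in place of 1113, with fewer nuclei and so fewer regions reaching the minimum. The number of higher regions moved much less in these same nuclei. Of 39632 regions with 50 fragments on each day, 1577 (3.98%) were 4-fold or more higher in members than in nuclei with no marker UMI on both days. None of those was 2-fold higher at D5 and 7 were lower, with a median of -0.12. The demand for fragments and selectivity on both days itself leaves out regions that differ greatly between the days. The share past 2-fold among all 39632 was not computed, so this count is not read as a result about these regions.

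Regions near the marker genes were counted next. A region at the start site of Clec9a, chr6:129408518-129409346 (mm10), which covers the whole of the printed promoter, held 126 fragments at D0 and 154.5 at D5, a log2 ratio of -0.09 (-0.44 to 0.26). Over nuclei without markers it was higher by 2.17 and 2.50 on the log2 scale at D0 and D5. Around Xcr1 the region with the highest such ratio, chr9:123838162-123839053, lay nearest to the start site of Fyco1 and held 96.5 fragments at D0 and 130 at D5, with 4.27 and 4.35 on the log2 scale over nuclei without markers. A region at chr8:120768312-120769215, with its middle 31265 bases from the start site of Irf8, held 269 fragments at D0 and 380.5 at D5 and was higher in members by 1.98 and 2.28. For Batf3 the chosen region, chr1:191100034-191100912, held 104.5 fragments at D0 and 191.5 at D5, a log2 ratio of 0.49 (0.14 to 0.84), in the same direction as its RNA.

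To ask whether RNA and chromatin differed together, fragments were summed over regions within 2 kb of each start site. Of 16868 such windows, 12 (0.0711%) were 2-fold or more higher and 118 (0.7%) lower at D5. The 598 genes with 2-fold lower RNA and a counted window had a median window log2 ratio of -0.12, and 433 were lower (47.3% of all 10126 genes with both values). The 65 with 2-fold higher RNA had a median of 0.08, and 45 were higher (52.7% of all), while the median over all was 0.01.

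The lists parted here. The window of Gbp2 held 119 fragments at D0 and 83.5 at D5, a log2 ratio of -0.90 (-1.32 to -0.48), and that of Gbp4 113 fragments at D0 and 67 at D5, a log2 ratio of -1.14 (-1.60 to -0.69), both lower like their RNA. The window of Irf1 was at 0.07 (-0.09 to 0.24) and that of Cxcl9 at -0.26 (-0.61 to 0.09). Of 32 interferon-stimulated genes with a window, 24 were lower (52.6% of all windows), with a median of -0.13. At heat shock genes the windows did not follow the RNA, with Hsph1 at 0.09 (-0.06 to 0.23), Hspa1b at 0.14 (-0.10 to 0.38) and Dnajb1 at 0.21 (0.07 to 0.35) and a list median of 0.04. The window of Ifitm1 held 25.5 fragments at D0 and 54 at D5, a log2 ratio of 0.70 (-0.01 to 1.44), and that of Ifitm2 369.5 fragments at D0 and 671.5 at D5, a log2 ratio of 0.47 (0.29 to 0.66). Apol7c had too few fragments to compare, 14 fragments at D0 and 3 at D5. For MHC class II presentation 11 of 13 windows were higher (47.4% of all windows), with a median of 0.12. Windows of the lymphocyte markers had a median of -0.87, with 7 of 16 lower by 2-fold or more (0.7% of all windows), and their part in the other windows was not tested.

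**Figure D5:**
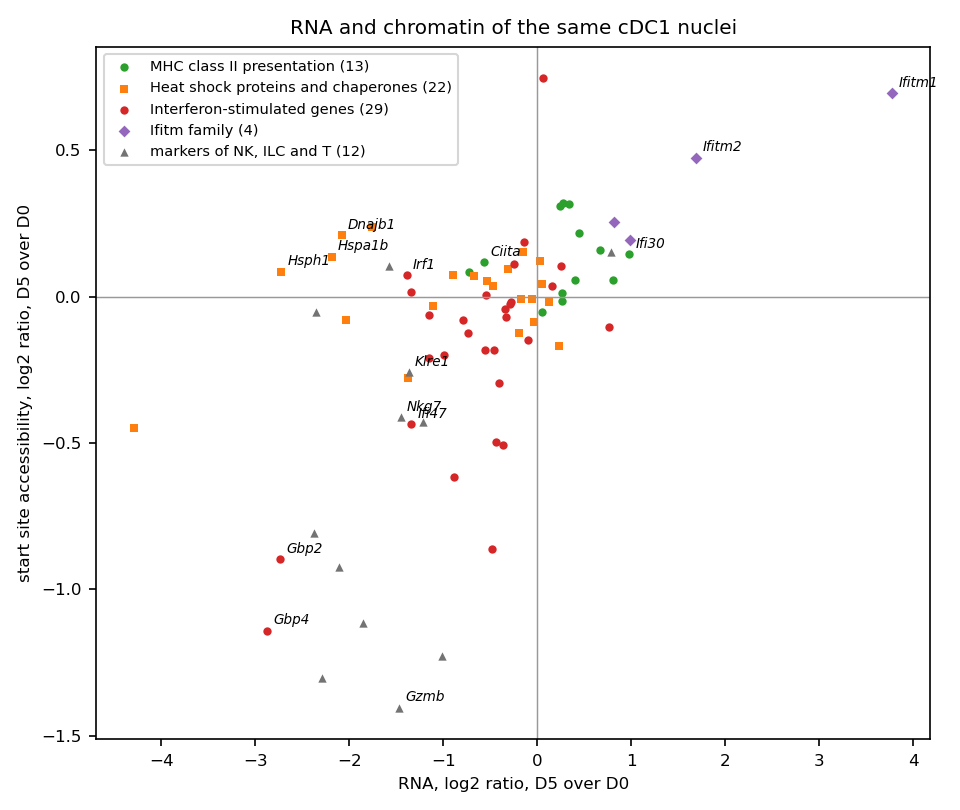
Each point is a gene of cDC1 nuclei, placed by its RNA log2 ratio of D5 over D0 and by the log2 ratio of ATAC fragments within 2 kb of its start site, with the number of genes per list in the legend. Gbp2 and Gbp4 lie low on both axes, the heat shock genes Hsph1, Hspa1b and Dnajb1 lie low on the RNA axis alone, and Ifitm1 and Ifitm2 lie high on both.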

How the data were processed

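RNA and ATAC of the same nuclei were deposited by the authors as raw counts. The submitters' processing notes name Cell Ranger ARC 2.0.2, cellranger 6.0.2 and mm10. RNA counts are UMIs per gene and barcode, and ATAC counts are cut sites per peak called in each library alone. Cut sites were divided by 2 and summed over regions where the peaks of both days overlapped. The joint matrix of D5 was used without barcodes, and nuclei were joined between layers by identical RNA counts, which matched all called barcodes. The deposited RNA layers held 44496348 and 94374499 UMIs at D0 and D5.

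Counts were summed over the members of a day and scaled to CPM by their total. Ratios of D5 over D0 have exact conditional binomial 95% intervals, shares exact binomial ones, and the difference of shares one combined from these by the method of Newcombe, all for counting error only. With 1 library per day no count model was run, and the ratios were checked on simulated data. Genes needed 50 UMIs and regions 50 fragments over both days. Classes of cDC2, pDC and NK or T nuclei used the exclusion genes of the rule. Genes named were the 12 with the highest lower bound and the 12 with the lowest upper bound, the markers and exclusion genes of the rule, and members of the gene lists, beside the 12 highest genes of members over nuclei without markers and the 10 with the highest Fano factor. The members, lists and rules were chosen with earlier results of these data known. Doublets were scored with Scrublet in scanpy 1.11.5. Its own thresholds called 40.1% and 9.99% of nuclei, so a limit of 0.2 was used as an alternative and no member was removed. Python 3.11.15, numpy 2.4.6, scipy 1.17.1, pandas 2.3.3 and matplotlib 3.10.9 were used, with TMM factors from edgeR 4.0.16 in R 4.3.3. Promoters of RefSeq were printed in place of the planned region sequences, which were not used here. Alternatives were other normalisation, minimums, thinning, marker sums, exclusion sums, doublet removal, overlap and window widths. A listed gene that is not reported here is counted in its list and left out of the plot by class.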

Additional observations from a re-analysis of the deposited data

Results flagged for a closer look

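Of 61 genes compared between cDC1 and cDC2 nuclei, 4 differed in opposite directions between D5 and D0, with both counting intervals clear of 0. The 61 were genes with the highest and lowest ratios in members, the markers of the rule and genes picked for the text. The share over all genes was not computed, so this count is not read as a result about the 61. Ccl22 had a log2 ratio of D5 over D0 of 1.07 in cDC1 and -1.53 in cDC2 nuclei, a difference of 2.60. Batf3 had 0.19 and -0.68, a difference of 0.87, and Il1b had 0.56 and -0.31, a difference of 0.86. The log2 ratio of Il1b was also above 0 in pDC and NK or T nuclei, at 1.14 and 0.45. Cd74 had 0.27 and -0.08, a difference of 0.35. In thinned nuclei Ccl22 was found in 2.41% and 4.54% of members and 12.1% and 5.18% of cDC2 nuclei. It was also found in 1.99% and 2.28% of pDC and 2.08% and 3.17% of NK or T nuclei, near the share of members at D0. The part of free RNA in the Ccl22 values was not tested. With 1 library per day the differences between cDC1 and cDC2 nuclei were not tested. With TMM factors the sign in cDC2 nuclei was not computed.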

How the results depend on the processing

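The difference in cDC1 share kept its direction under all alternatives tried. It was -0.93 percentage points as reported, -4.09 with all nuclei thinned to 1000 UMIs, -2.59 with nuclei of 2000 or more UMIs and -1.66 without nuclei of a doublet score of 0.2 or higher. The counts of genes 2-fold higher and lower, 72 and 685, were 358 and 330 with TMM factors, 157 and 1188 with a minimum of 20 UMIs per gene, 29 and 249 with 200, 2239 and 5334 with 1, and 154 and 393 in members with no lymphocyte UMI. The lower count was 411 with members thinned to 1000 UMIs, where fewer genes reached the minimum, and 437 with all exclusion sums at 0, which also left fewer nuclei. The counts of regions, 401 and 1113, were 1348 and 5468 with a minimum of 20 fragments, 25 and 5 with 200 and 626 and 720 with TMM factors. In members with no lymphocyte UMI the lower count was 102, while the higher count moved much less.

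TMM factors add 0.33 to every RNA ratio by construction, and list medians became -0.40 for the cDC1 markers of the rule, -0.015 for cDC1 genes outside the rule, 0.14 for transcription factors, 0.15 for cross-presentation and MHC class I, 0.61 for MHC class II, 0.065 for maturation, -0.23 for chemokines and cytokines, 0.34 for receptors, -0.12 for interferon-stimulated genes, -0.17 for heat shock genes, -0.049 for immediate early genes, 0.089 for NFkB genes, 0.013 for cell cycle genes, -0.79 for pDC markers, 0.62 for cDC2 markers, -1.13 for NK, ILC and T markers, 0.19 for B and plasma markers and 0.30 for monocyte markers. Thinning the members gave 0.041 for maturation, 1.44 for the Ifitm family, -0.037 for NFkB genes, 0.046 for B and plasma markers, 0.44 for macrophage markers, -0.52 for hepatocyte markers and -0.77 for endothelial and stellate markers. Removal of nuclei with a doublet score of 0.2 or higher gave -1.72 for NK, ILC and T markers and -1.12 for B and plasma markers, and a marker sum of 5 or more gave -0.34 for heat shock genes, -1.44 for B and plasma markers and 0.44 for macrophage markers. With all exclusion sums at 0 the medians were 0.24 for MHC class II, -0.80 for pDC markers, -1.10 for NK, ILC and T markers and -0.49 for hepatocyte markers. In members with no lymphocyte UMI they were -0.42 for cDC1 genes outside the rule, 0.10 for maturation, -0.48 for pDC markers, 0.28 for NK, ILC and T markers, -0.35 for hepatocyte markers, 2.82 for cholangiocyte markers and -0.30 for endothelial and stellate markers, where the lymphocyte markers turned sign because 13 of the listed genes were the selection. This choice, and the exclusion sums for list medians, were added after the data had been seen. Several marker lists rest on few genes with 50 UMIs. The cause of the other moves was not tested.

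Each day held 1 library, so that leaving out a replicate was not possible. No paired analysis was possible because each day is 1 library and the labels carry no replicate numbers. Depth limits genes under about 50 UMIs, whose ratios are not read here. An exception is the single genes given for members with no lymphocyte UMI, where no minimum was applied.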

Other observations

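Single regions of open chromatin were ranked by the same intervals as the genes. Of the 5 with the highest lower bound at D5, a region 13994 bases from the start site of Il1b, chr2:129385134-129386034 (mm10), held 23.5 and 126 fragments in cDC1 nuclei at D0 and D5, a log2 ratio of 2.04 (1.39 to 2.74), beside a log2 ratio of 0.56 for the RNA of Il1b, a cytokine of inflammation. The others lay nearest to Gm12523, 1700026J12Rik, Gm17133 and Plscr1, a scramblase gene known to respond to interferon, whose region held 10 and 58.5 fragments, a log2 ratio of 2.16 (1.18 to 3.29). The Plscr1 region was at 1.15 to 5.15 CPM in members and 3.13 to 10.04 CPM in cDC2 nuclei. It was at 1.09 to 3.70 CPM in pDC and 5.46 to 7.42 CPM in NK or T nuclei. In cDC2 nuclei the regions near Gm17133 and Gm12523 were at 6.84 to 17.2 CPM and 0.811 to 4.58 CPM. Those near Il1b and 1700026J12Rik were nearly level there, at 4.75 to 5.33 CPM and 0.232 to 0.288 CPM. The 5 with the lowest upper bound lay at the start sites of Sult2b1, Crtam and Osbpl3 and nearest to Egr1 and Sacm1l. The region at Crtam, a receptor of activated NK and CD8+ T cells, held 43.5 and 11.5 fragments, a log2 ratio of -2.31 (-3.39 to -1.34). All 5 were higher in NK or T nuclei, between 27.0 and 52.6 CPM at D0, against between 5.01 and 9.27 CPM in members, and the RNA of the NK, ILC and T markers in members had a median log2 ratio of -1.46. The part of lymphocyte chromatin in these 5 regions was not tested.

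Ranked by the lower of both days' ratios of members over nuclei without markers, the first region lay at Gm26861, at chr13:10419289-10420203, with 113 and 117 fragments at D0 and D5. It was higher in members than in nuclei without markers by 5.80 and 5.85 on the log2 scale. Among the 10 highest was also a region 73924 bases from the start site of Plce1, at chr19:38598134-38598735, with 5.49 and 5.35. Plce1 was the first gene in the same ranking of RNA. The nuclei were chosen by RNA and not by ATAC reads.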
